A study of Rattus norvegicus with 6 samples.

Results

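Cdh2 and Enpp1 encode membrane proteins that hepatocytes carry on their surface, and each was read by a single probe with 10 spots on every array. The genes were taken by name. They are 2 of 38 genes that could be named through a RefSeq transcript, and their probes are 2 of the 38321 on the array that are not controls. RefSeq lists 1 transcript for Cdh2 and 3 for Enpp1. Probe sequences were not used here, so which exons or isoforms each probe reads was not tested.

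The arrays were hybridized with liver RNA of male Lewis rats, taken 12 h after liver transplantation (LT). In the BDDLT group (brain-dead donor LT, n = 3) the grafts came from donors that had been brain dead for 6 h. In the control group (n = 3) the donors had only had a sham operation, which consisted of drilling the skull and opening the abdomen. Grafts of both groups were flushed with University of Wisconsin solution and implanted with cuffs, and the hepatic artery was not reconnected, so every liver studied had also gone through reperfusion without its arterial supply. No untransplanted liver was measured on these arrays. The tissue is whole liver, in which fewer cells of a type and less RNA per cell cannot be told apart.

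Cdh2 is N-cadherin, a calcium-dependent adhesion protein. Its extracellular domains bind those of the same protein on the neighbouring cell, and its cytoplasmic tail binds catenins that link it to actin. Hepatocytes carry it together with E-cadherin at their lateral contacts, and mesenchymal cells such as stellate cells make it too. Enpp1 is an ectoenzyme with its active site outside the cell. It splits extracellular ATP into AMP and pyrophosphate, an inhibitor of calcification, and it also degrades the cyclic dinucleotide cGAMP, a messenger of innate immunity.

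Each of the 3 BDDLT livers had less scaled Cdh2 signal than the lowest control liver, by 1.34-fold between the group means, but the difference did not pass the limits used for all probes. The mean Enpp1 signal was almost the same in the groups, at 1.01-fold, and the spread of the livers within a group depended on how the arrays were scaled. The limits were a 2-fold or larger difference and a false discovery rate under 0.05, as in the methods of the study, with p adjusted here by Benjamini-Hochberg. Of 27259 probes tested with limma, 0.814% met both limits, and neither Cdh2 nor Enpp1 was among them. That share was itself unstable, since the number of probes meeting both limits went from 222 to between 0 and 355 over 20 alternatives. It was 0 in 5 of them, all of which left out arrays or added a block. These were the replicate number as a block, the first slide alone, and leaving out BDDLT replicate 1, BDDLT replicate 2 or control replicate 2. With the other scalings and normexp background correction, which kept all arrays, the number was between 28 and 249.

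Both probes gave signals well clear of the background. All 10 spots of each were well above background on each of the 6 arrays, and no spot was saturated. The median ratio of a spot's signal to its local background was between 104 and 142 for Cdh2 and between 26.5 and 46.3 for Enpp1. Outlier flags removed 0 of 60 Cdh2 spots and 4 of 60 Enpp1 spots. The values below are log2 processed signals averaged over the kept spots of an array, minus the 75th percentile of that array, so a value of 1 means a signal at 2 times that percentile.

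The SD over the spots of an array was between 0.0754 and 0.112 for Cdh2 and between 0.0422 and 0.0659 for Enpp1 on the log2 scale. The median of this SD over the other 38 detected probes with 10 spots ranged from 0.0275 to 0.417, with a median of 0.0734. Averaging brought the standard error of an array's value to at most 0.0356 for Cdh2 and 0.0208 for Enpp1. Between arrays of the same group the pooled SD was 0.192 for Cdh2 and 0.235 for Enpp1, and over all tested probes its median was 0.195. The BDDLT livers carry most of this pooled SD, since among the control livers the SD was 0.0686 for Cdh2 and 0.0258 for Enpp1. Spots of an array share its RNA and are not replicates of a condition.

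**Figure D1:**
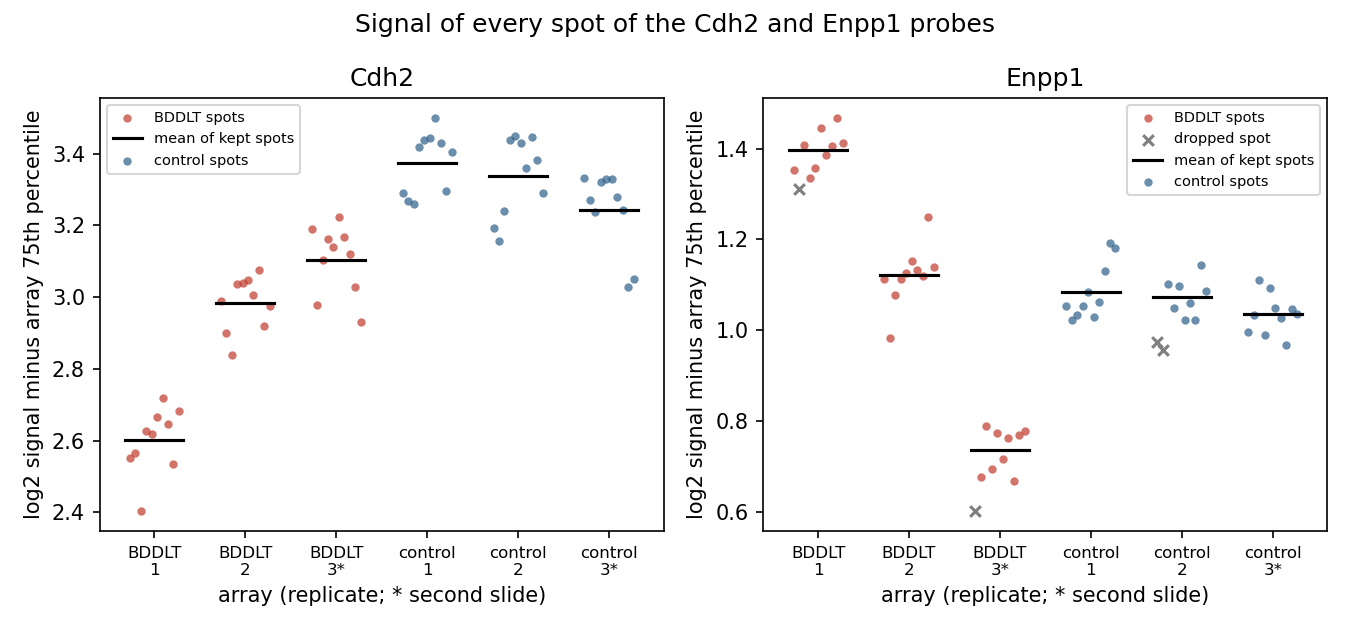
Log2 signal of each spot minus the 75th percentile of its array (y axis) for the Cdh2 probe (left) and the Enpp1 probe (right) on the 6 arrays (x axis), with BDDLT spots in red, control spots in blue, spots removed as outliers as grey crosses, and the mean of the kept spots as a black line. The Cdh2 means of the BDDLT arrays, between 2.60 and 3.10, all lie below those of the control arrays, between 3.24 and 3.37, while the Enpp1 means of the BDDLT arrays, between 0.74 and 1.40, lie on both sides of the control arrays.

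The scaled log2 signal of Cdh2 was 2.60, 2.98 and 3.10 in BDDLT replicates 1, 2 and 3. In control replicates 1, 2 and 3 it was 3.37, 3.34 and 3.24. The groups did not overlap, BDDLT replicate 1 lay farthest from the control livers, and the gap between the nearest livers of the groups was 0.138. The BDDLT mean was 2.90 ± 0.26 (SD, n = 3) and the control mean 3.32 ± 0.07 (SD, n = 3). In limma the log2 fold change came to -0.42 (standard error 0.15, 95% interval -0.79 to -0.05, adjusted p of 0.228). On the linear scale this interval runs from 1.04-fold to 1.73-fold lower, which leaves out a fold change of 2. Over 20 other ways of processing the interval of Cdh2 held 0 in 10, and in 2 it reached past 2-fold lower, to -1.30 with reference gene scaling and to -1.02 on the first slide alone.

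The unadjusted p of Cdh2 from limma was 0.0321, a limit of 0.05 that 17.5% of the 27259 probes met before adjustment. Values of the groups did not overlap for Cdh2, for 1 of the 2 genes, and for 24.5% of all tested probes. The difference in Cdh2 was therefore of a kind that many probes on these arrays showed. In the exact two-sided permutation test over the 6 arrays p was 0.10, the smallest value that 3 against 3 arrays can give. These tests do not use the replicate numbers. Between livers of the same number the Cdh2 difference was -0.77, -0.36 and -0.14. Its sign was fixed for any pairing, since the groups did not overlap. With the replicate number as a block the unadjusted p of Cdh2 from limma was 0.0541, and the 95% interval, from -0.86 to 0.01, held 0.

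Single Cdh2 spots of the groups overlapped, while the array means did not. Of the 30 BDDLT spots, 19 lay below the lowest of the 30 control spots, and 26 of the control spots lay above the highest BDDLT spot. The spots repeat the same 6 RNAs and add no evidence beyond the array means.

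Before scaling, the Cdh2 arrays overlapped. The geometric mean of the processed signal was 1467, 1989 and 2345 in BDDLT replicates 1, 2 and 3, and 2248, 2287 and 2431 in control replicates 1, 2 and 3. BDDLT replicate 3 thus had more signal than 2 of the control livers before scaling. The 75th percentile that was divided out was 242, 252 and 273 in the BDDLT arrays and 217, 226 and 257 in the control arrays. Without scaling the log2 fold change of Cdh2 was -0.29 with a standard error of 0.19. The Cdh2 values of the groups also overlapped when the arrays were scaled by their median, with a log2 fold change of -0.39. With reference gene scaling the Cdh2 values overlapped too, with -0.54. There the middle value of 7 probes was divided out, which was that of Sdha on every array but BDDLT replicate 1. The overlap and the -0.54 therefore mostly describe Cdh2 relative to the Sdha probe.

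The size of the Cdh2 difference rested in good part on BDDLT replicate 1. Without that array the log2 fold change was -0.27, with an adjusted p of 0.404 from limma. Leaving out an array could not make the groups overlap, since they did not overlap with all arrays in. Without any other single array the log2 fold change was between -0.53 and -0.39.

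For Enpp1 the scaled log2 signal was 1.40, 1.12 and 0.74 in BDDLT replicates 1, 2 and 3. In control replicates 1, 2 and 3 it was 1.08, 1.07 and 1.03. BDDLT replicates 1 and 2 lay above all control livers and BDDLT replicate 3 below all of them. The BDDLT mean was 1.08 ± 0.33 (SD, n = 3) and the control mean 1.06 ± 0.03 (SD, n = 3). In limma the log2 fold change came to 0.02 (standard error 0.18, adjusted p of 0.979), and the exact two-sided permutation test gave p = 0.80. Its 95% interval went from -0.41 to 0.46, that is, from 1.33-fold lower to 1.37-fold higher, so a difference of moderate size in either direction lies within it.

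The spread of Enpp1 within the groups depended on the scaling. With the 75th percentile the BDDLT livers covered a range of 0.661 on the log2 scale, or 1.58-fold, and the control livers one of 0.0492, or 1.03-fold. The ratio of the BDDLT SD to the control SD was then 12.9 for Enpp1 and 3.83 for Cdh2, against a median of 0.896 over 27192 tested probes with a value on every array, of which 0.655% reached the ratio of Enpp1. With quantile normalization the ratio of Enpp1 was 23.4 (reached by 0.143% of the probes), and after normexp background correction it was 11.5 (0.890%). It was 2.75 with median scaling (7.97%) and 2.39 without scaling (9.52%). With reference gene scaling it was 0.195 (97.6%), so that the control livers of Enpp1 were the more spread. The level divided out there was that of the Sdha probe on every array but BDDLT replicate 1. Sdha is among the probes most like Enpp1 (r = 0.770), so this ratio mostly describes Enpp1 relative to that probe. For Cdh2 the ratio was 0.924 with median scaling and between 2.20 and 12.7 with the others. These ratios under other scalings were computed after the values had been seen, and with 3 livers per group the difference in spread was not tested.

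Before scaling, the order of the BDDLT livers in Enpp1 was the same. The geometric mean of the processed signal was 636, 547 and 454 in BDDLT replicates 1, 2 and 3, against 459, 475 and 526 in control replicates 1, 2 and 3. BDDLT replicate 1 was again the highest and BDDLT replicate 3 the lowest of the 6. Without BDDLT replicate 1 the log2 fold change of Enpp1 turned from 0.02 to -0.14, and without BDDLT replicate 3 it was 0.19, with adjusted p values from limma of 0.824 and 0.455.

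With 75th percentile scaling the genes ran in opposite order within the BDDLT group. BDDLT replicate 1 had the lowest Cdh2 and the highest Enpp1 signal of the 6 livers, and BDDLT replicate 3 had the highest Cdh2 signal of its group and the lowest Enpp1 signal of all.

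Whether the genes differed in their response was asked on the difference of their log2 signals within each array, from which the scaling of the array drops out. This difference has no meaning as a level, because the probes differ in brightness, and was only compared between livers. It was 1.20, 1.86 and 2.37 in BDDLT replicates 1, 2 and 3, and 2.29, 2.27 and 2.21 in control replicates 1, 2 and 3. BDDLT replicates 1 and 2 lay below all control livers and BDDLT replicate 3 above them. Its BDDLT mean was 1.81 ± 0.58 (SD, n = 3) and its control mean 2.25 ± 0.04 (SD, n = 3). The change of Cdh2 minus that of Enpp1 came to -0.44 (standard error 0.34, 95% interval -1.38 to 0.49). The exact two-sided permutation test gave p = 0.40, and 0.10 is the smallest value it can give for 3 against 3 arrays. Since the 95% interval held 0, a different response of Cdh2 and Enpp1 was not shown. Without BDDLT replicate 1 the difference was -0.14, and without BDDLT replicate 3 it was -0.72.

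The arrays lay on 2 slides, the first with replicates 1 and 2 of each group and the second with replicate 3 of each. On the first slide the log2 fold change was -0.56 for Cdh2, between means of 2.79 and 3.36, and 0.18 for Enpp1, between means of 1.26 and 1.08. On the second slide, which held 1 array of each group, it was -0.14 for Cdh2 and -0.30 for Enpp1. Cdh2 was thus lower in the BDDLT livers on both slides, while Enpp1 was higher on the first and lower on the second. In a fit with group and slide together, the second slide differed from the first by 0.10 with a standard error of 0.16 for Cdh2 (adjusted p of 0.716 from limma) and by -0.28 with a standard error of 0.15 for Enpp1 (adjusted p of 0.293 from limma). The log2 fold changes were the same with the slide as a block, with adjusted p values from limma of 0.182 for Cdh2 and 0.949 for Enpp1. On each slide the BDDLT arrays occupied positions before the control arrays, so position on the slide and group cannot be told apart.

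Few other genes can be set beside Cdh2 and Enpp1, since 37277 probes carry only a number of the manufacturer. Of 10 genes of cadherin adhesion, among them E-cadherin and the catenins, only Cdh2 had a probe that could be named. Of 13 genes of pyrophosphate and nucleotide handling, among them Abcc6, Ankh and Nt5e, only Enpp1 had one. Of 10 hepatocyte genes Cyp2e1 and Cdh2 had a named probe, and of 23 markers of Kupffer, endothelial, stellate and bile duct cells and of leukocytes none had. Cyp2e1 was well above background on all 6 arrays, but the cells that gave the Cdh2 and Enpp1 signals cannot be told from these probes.

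Among 31 other detected probes of 30 genes that an accession names, 1 probe, that of Ptk2b, met both limits (0.814% of all tested probes did) and 13 had groups that did not overlap (24.5% of all did), 8 of them lower and 5 higher in the BDDLT group. With the replicate number as a block no probe on the array met both limits, that of Ptk2b included. The log2 fold changes of these 31 probes ran from -0.99 to 1.12. Of these probes 5 had a value at least as low as that of Cdh2, and none lay closer to 0 than Enpp1.

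The probes whose signal ran most like that of Cdh2 over the 6 arrays, by Pearson's r among these 31, were those of Magoh (0.949), Cyp2e1 (0.944) and Hsp90ab1 (0.936). The values share the arrays and their scaling, and r is given as a description only. Cyp2e1, a cytochrome P450 of pericentral hepatocytes, was 5.27, 6.41 and 6.97 in BDDLT replicates 1, 2 and 3 and 7.02, 7.24 and 7.37 in control replicates 1, 2 and 3. As for Cdh2, BDDLT replicate 1 was the lowest and the groups did not overlap, and its log2 fold change came to -0.99 (standard error 0.43, adjusted p of 0.314 from limma). Magoh, a core protein of the exon junction complex, was 2.19, 2.28 and 2.29 in the BDDLT group and 2.43, 2.46 and 2.43 in the control group, a log2 fold change of -0.19 (adjusted p of 0.327 from limma). Hsp90ab1, a cytosolic chaperone, had values that overlapped between the groups, at 5.09, 5.42 and 5.53 against 5.53, 5.59 and 5.48, with a log2 fold change of -0.19 (adjusted p of 0.580 from limma).

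Most like Enpp1 were Ndfip2 (r = 0.981), Pld1 (0.899) and Sdha (0.770). Ndfip2, an adaptor of ubiquitin ligases of the Nedd4 family, was 4.64, 4.38 and 3.99 in BDDLT replicates 1, 2 and 3 and 4.32, 4.31 and 4.18 in control replicates 1, 2 and 3. It placed BDDLT replicate 1 highest and BDDLT replicate 3 lowest, as Enpp1 did, and its log2 fold change was 0.07 (adjusted p of 0.916 from limma). Pld1, a phospholipase D that makes phosphatidic acid, was 0.68, 0.48 and 0.14 in the BDDLT livers and 0.46, 0.57 and 0.57 in the control livers. Sdha, a subunit of succinate dehydrogenase, was 6.74, 6.49 and 6.06 against 6.58, 6.31 and 5.95. For Enpp1 itself, Ndfip2 and Sdha the liver on the second slide was the lowest of each group, and for Pld1 it was so in the BDDLT group only.

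**Figure D2:**
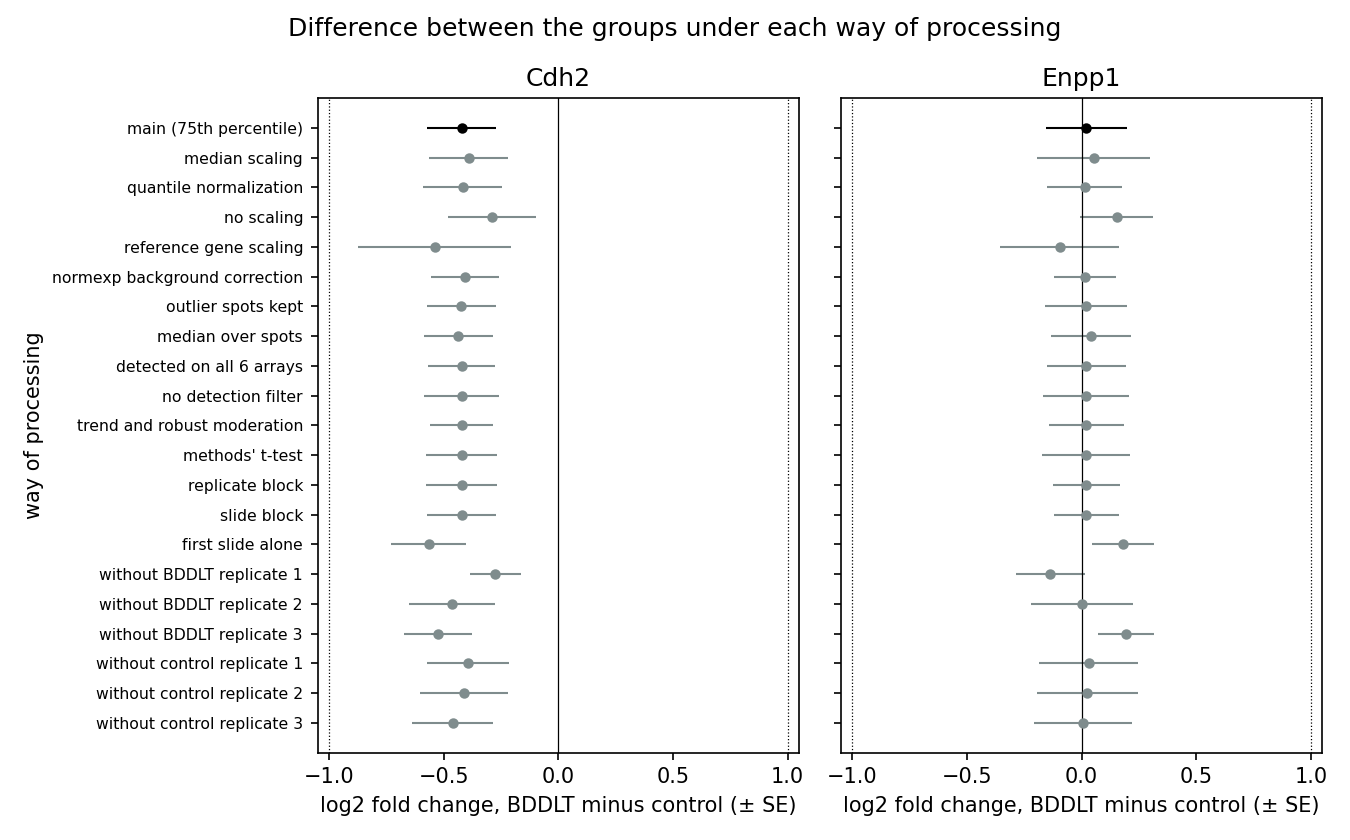
Log2 fold change of BDDLT minus control (x axis, point) with its standard error (bar) for Cdh2 (left) and Enpp1 (right) under the main processing (black) and 20 alternatives (grey, y axis), with dotted lines at a fold change of 2 in either direction. All values of Cdh2 lie below 0, between -0.56 and -0.27, and those of Enpp1 lie between -0.14 and 0.19.

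Over 20 other ways of processing the log2 fold change of Cdh2 stayed between -0.56 and -0.27, and that of Enpp1 between -0.14 and 0.19. None of them brought either gene past both limits. The adjusted p from limma and the methods' t-test was at least 0.167 for Cdh2 and at least 0.455 for Enpp1. In 7 of the 20 the array values themselves were computed anew. The Cdh2 values of the groups stayed separate in 4 of these and overlapped in 3, those with median, reference gene and no scaling. Those of Enpp1 overlapped in all 7.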

How the data were processed

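Liver RNA of 6 rats was read on 1-colour Arraystar Rat LncRNA arrays. The deposited files hold the intensity of each spot from Agilent Feature Extraction 11.0.1.1, subtracted for background by the scanner software and not normalized between arrays. A table of normalized log2 values that the authors deposited has 38329 rows and none for either gene, so it gave no value.

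Spots flagged as non-uniformity or population outliers were dropped, log2 processed signals were averaged per probe, and the 75th percentile over all non-control probes was subtracted. The moderated test of limma 3.58.1 (R 4.3.3), without covariates, took in probes of which 50% or more of the kept spots were well above background, on 3 or more of the 6 arrays. P-values were adjusted over all 27259 such probes. The limma fit was run on simulated data with independent errors. Both limits were met by 59% of probes given a log2 change of 1.5 and by 94% given 3, with 6 false calls. Changes as small as that of Cdh2 were not simulated. The number of arrays limits the precision, and p-values measure the spread between these livers, whose independence the labels do not state.

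Alternatives were other scalings (quantile, median, reference genes, none), normexp background correction of the median signal (offset 50), other filters, spot averages, variance models, blocks, the methods' t-test, and each array left out. Same-numbered livers deviated together (correlation of 0.139, 0.297 and 0.531 over 27192 probes), as did livers of other numbers on the same slide (0.291 and 0.200), and the methods speak of pairs, so the replicate number was tried as a block. Other genes named in the text are the 3 most like each gene, the 1 that met both limits, and members of the gene lists. Some of these members had no named probe. An accession in RefSeq matched 39 probes of 38 genes, of which 33 were detected. Genes, lists and tests were chosen with earlier results of these data known.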

Additional observations from a re-analysis of the deposited data

How the results depend on the processing

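In none of 20 alternatives did Cdh2 or Enpp1 meet both limits. Cdh2 kept its direction in all 20. Its fold change could not move under the other detection filters, the other variance model, the blocks and the methods' t-test. Nor could its sign change where arrays were left out, since the groups did not overlap. Enpp1, whose value is near 0, had the other sign in 2 alternatives. It was -0.096 with scaling by the median of 7 reference gene probes and -0.135 without BDDLT replicate 1. The former is a shift common to all probes, by -0.116 for Cdh2, Enpp1 and the median of all probes alike, and says nothing about Enpp1 in particular. That median went from -0.03 to -0.14, and without scaling to 0.11. The 7 probes themselves ranged from -0.45 (Hprt1) to 0.50 (Actb). Their median, which was divided out, was the Sdha probe on every array but BDDLT replicate 1, where it was Pgk1. Leaving out 1 array at a time gave values between -0.135 and 0.195 for Enpp1. With the replicate block, which treats the livers as pairs, the log2 fold changes of -0.42 for Cdh2 and 0.021 for Enpp1 were unchanged by construction, their adjusted p values from limma were 0.233 and 0.950, and the probes meeting both limits went from 222 to 0. The change of Cdh2 minus that of Enpp1 stayed below 0 in all 13 alternatives, between -0.75 and -0.14. Under the blocks this difference could not move. In the replicate block the exact paired permutation p of this difference was 0.50. With so few pairs that test cannot give a p as small as 0.10. The unadjusted p of Cdh2 was under 0.05 in 10 of 20. The authors' normalized values could not be tried, since they hold neither probe.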
